A study of Rattus norvegicus with 18 samples.

Results

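Voltage-gated and potassium ion channel genes were followed in rat heart allografts and T cells. The genes were those whose symbol on the array begins with Kcn, Cacn, or Scn or Hcn and a digit, which takes in potassium channels of every family, voltage-gated sodium and calcium channels, pacemaker channels and their auxiliary subunits. Of 114 such genes, 66 had signal above the 40th percentile of an array in at least 3 of 18 arrays and 48 did not, among 11791 of all 14217 measured genes that passed. Each gene was represented by its probe set with the highest mean. A difference below is a difference of log2(signal + 16), and a difference of 1 is then about a doubling for a strong signal and understates the change of a weak one.

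Hearts of Wistar Furth rats were grafted into the abdomen of ACI rats, which differ from the donors at the class I antigen RT1.A. Recipients were untreated, or received oral cyclosporine, a calcineurin inhibitor, at 10 mg/kg/day on days 0 to 2, or received the same course with an allochimeric peptide, 1 mg/kg, injected through the portal vein on the day of grafting. The labels call the cyclosporine dose sub-therapeutic and describe no vehicle injection for the other groups. RNA of the allograft and of T cells was measured on days 1, 3 and 7 with 1 array for each combination of tissue, treatment and day. All samples are labelled male and Wistar Furth, T cells included, so the strain and the organ that the T cells came from are not settled, and whether samples were pooled is not stated. No combination had a second array. Each test therefore measured how evenly a difference recurred over the other factors, and its p-value reflects only how these samples vary, part of which may be technical.

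These channels set the electrical behaviour of a cell. In heart muscle, sodium and calcium channels open to start and sustain the action potential, and several potassium channels open in turn to end it and hold the resting potential. In T cells, potassium channels keep the membrane potential negative, which maintains the entry of calcium after antigen recognition. Calcium entry activates calcineurin, the target of cyclosporine.

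The labelled tissues carried their defining transcripts. All 14 heart muscle markers with a probe set lay above the 40th percentile in every heart array, with a summed signal of 152614 to 185555 against 847 to 1333 in T cells. The summed signal of 14 T cell markers was 63073 to 91000 in T cells, 1871 to 3711 in hearts of days 1 and 3, and 23460 to 29135 in hearts of day 7. Markers of other cells were present in the T cell samples, with 6 B cell markers summing to 9176 to 29276 and 9 macrophage markers to 26910 to 44079. The untreated day 1 T cell array stood apart, with 7 neutrophil markers summing to 38130 against 1178 to 3351 on the other 8 T cell arrays, the highest B cell sum and the lowest T cell sum. Values that involve this array are given with and without it where the call differed.

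Channel genes that did not pass the filter included several that are well known in these tissues. Kcna3, the voltage-gated potassium channel classically described in T cells, had a median signal of 96.1 in T cells and 47.2 in hearts, with a range of 29.5 to 113, against a 40th percentile of 127 to 145. Kcnj2 and Kcnj12, which form the inward rectifier that holds the resting potential of ventricular muscle, had medians of 51.6 and 84.6 in hearts. Kcne1, the partner of Kcnq1 in the slow delayed rectifier, had a median of 35.5 in hearts, and Cacna1e and Kcnj10 had medians of 53.1 and 48.4 in T cells. Kcnd3, a pore of the transient outward current, passed in 1 array only. None of these signals was separated from the low end of the arrays, so no level or difference was read from them. At the border of the filter, Kcnk1 passed in 3 arrays, all of T cells, where its signals were 104 to 167, and Cacna1b missed it with 2 arrays and signals of 73.1 to 139.

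T cells and hearts carried different sets of channels. Over the 9 array pairs matched for treatment and day, 22 of the 66 genes were higher in T cells and 32 lower in limma at an adjusted p below 0.05 (12 residual degrees of freedom). Among all 22318 probe sets tested, 47.9% were called higher and 35.5% lower in T cells. The median difference of the channel genes was -0.17 and that of all probe sets 0.15. Centring each array on its median raised the second value to 0.25 and gave 27 higher and 29 lower channel genes. Of the 66 genes, 16 lay below the 40th percentile on all 9 T cell arrays and 5 on all 9 heart arrays, and a gene that passed the filter through 1 tissue alone had to be higher there.

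Counts by channel family are read beside the 47.9% of all probe sets called higher and the 35.5% called lower in T cells. Some members passed the filter through a single tissue only, which fixed their direction. All 3 sodium channel beta subunits were lower in T cells, as were 2 of 3 sodium pores and 4 of 6 auxiliary calcium subunits. Of 19 voltage-gated potassium pores, 5 were higher in T cells and 9 lower, and of 9 inward rectifiers 4 were higher and 4 lower. The K2P leak channels had 5 of 8 higher and 3 lower, and the calcium- or sodium-activated potassium channels 3 of 4 higher. The 12 genes that did not pass had differences from -0.20 for Hcn4 to 0.26 for Kcna1.

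**Figure D1:**
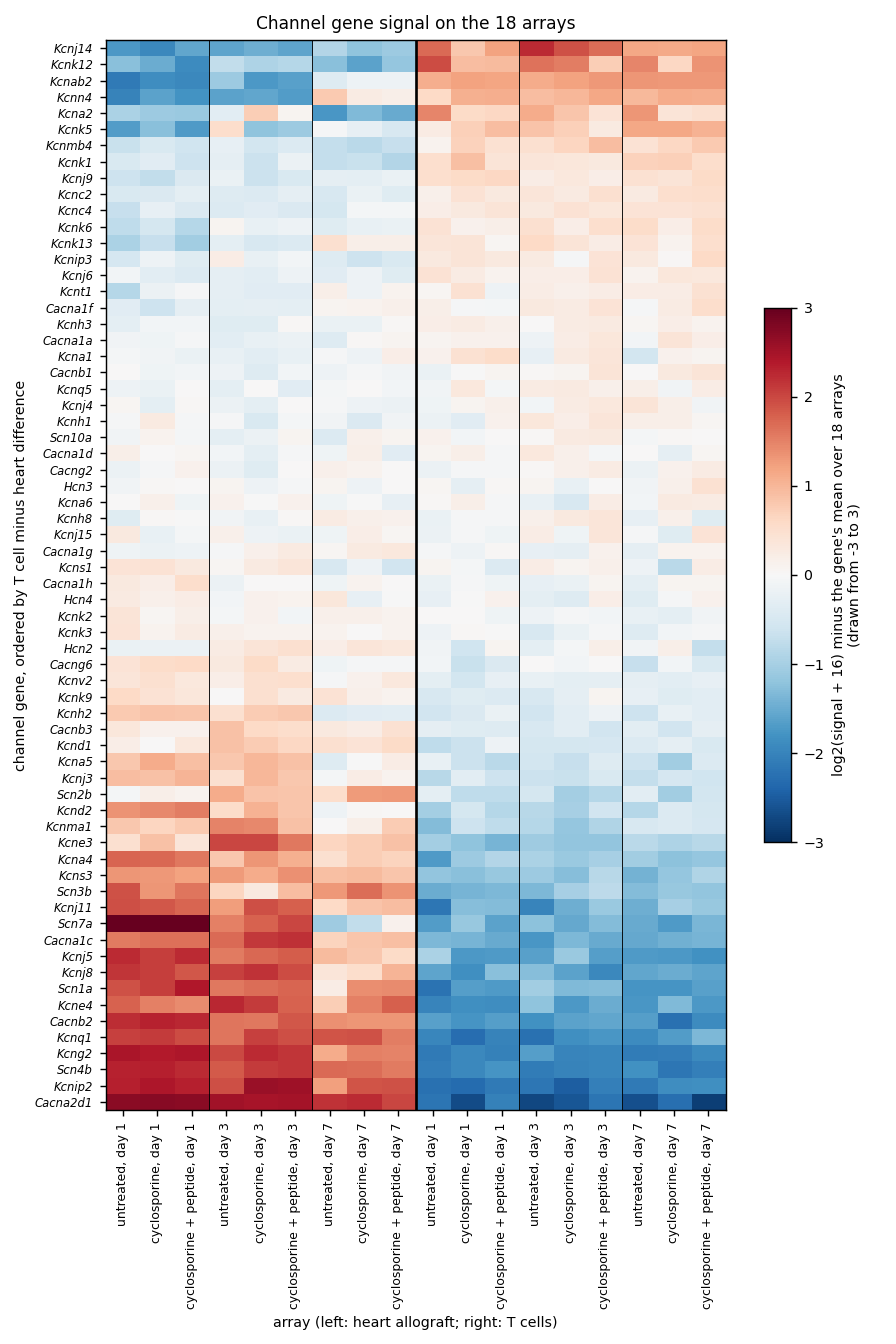
Signal of the 66 channel genes on the 18 arrays, each gene centred on its own mean log2(signal + 16); rows run from the gene highest in T cells to the gene highest in hearts and columns from day 1 to day 7 within heart (left) and T cells (right). Colours end at differences of -3 and 3. In hearts, Kcnn4 and Kcnab2 were higher on day 7 than on both earlier days, and Scn7a was lower.

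The 8 genes with the largest differences towards T cells were all potassium channel subunits. Kcnj14, an inward rectifier, had signals of 130.0 to 377 in T cells and 5.81 to 29.4 in hearts, a difference of 2.89 ± 0.17 (SE, adjusted p = 1.59e-10). Its heart signals were all below the 40th percentile. Kcnk12, a subunit of the K2P leak channel family, ran from 189 to 496 in T cells and from 20.0 to 63.5 in hearts, a difference of 2.48 ± 0.15 (SE, adjusted p = 3.62e-10). Groups did not overlap for either gene. Both passed the filter through T cells alone, which fixed their direction. Kcnab2, a cytoplasmic beta subunit of voltage-gated potassium channels, ranged over 2059 to 2420 with a median of 2222 in T cells and 208 to 859 with a median of 298 in hearts, a difference of 2.45 ± 0.19 (SE, adjusted p = 5.21e-09). Its other 3 tested probe sets differed by 2.67, 2.48 and 2.97.

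Kcnn4, the calcium-activated potassium channel of lymphocytes, ranged over 1747 to 2604 with a median of 2413 in T cells and 277 to 1990 with a median of 368 in hearts. Its groups overlapped, since the untreated day 7 heart exceeded the untreated day 1 T cells, and the difference was 2.01 ± 0.26 (SE, adjusted p = 2.61e-06). Kcna2, a voltage-gated pore, was higher in T cells by 1.60 ± 0.24 (SE, adjusted p = 1.54e-05), whereas its other probe set differed by -0.17 and was not called, so the 2 probe sets disagree. Kcnk5 and Kcnk1, K2P leak channels, differed by 1.58 ± 0.22 and 1.05 ± 0.11, and Kcnmb4, a beta subunit of the large-conductance calcium-activated channel, by 1.14 ± 0.09. Smaller differences of 0.72 to 0.86 were called for Kcnj9, Kcnc2, Kcnc4 and Kcnk6. Kcnk1 and Kcnj9 passed the filter through T cells alone, which fixed their direction. For Cacna1d, a calcium channel pore also studied in lymphocytes, the difference was 0.10 ± 0.09 (SE, adjusted p = 0.288) and did not pass.

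On the heart side the auxiliary subunits were prominent. Cacna2d1, the alpha2delta subunit of calcium channels, had signals of 1322 to 2208 with a median of 1889 in hearts and 31.6 to 66.8 in T cells, the lowest value of T cells minus heart among the 66 genes at -4.90 ± 0.11 (SE, adjusted p = 1.39e-15). Kcnip2, the subunit that assembles with Kcnd pores into the transient outward channel, had signals of 2858 to 7329 with a median of 6086 in hearts and 205 to 322 in T cells and differed by -4.26 ± 0.14 (SE, adjusted p = 2.63e-13). The sodium channel beta subunit Scn4b differed by -3.97 ± 0.09, the calcium channel beta subunit Cacnb2 by -3.51 ± 0.11 and the potassium channel subunit Kcne4 by -3.30 ± 0.15. In none of these did a T cell array reach a heart array. Cacna2d1 and Kcne4 passed the filter through hearts alone, which fixed their direction.

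Pore-forming subunits followed. Kcng2, a modulatory alpha subunit that is silent on its own, differed by -3.94 ± 0.13 and Kcnq1, the pore of the slow delayed rectifier, by -3.78 ± 0.12. Scn1a, a sodium channel pore, differed by -3.20 ± 0.19 and Cacna1c, the pore of the cardiac L-type calcium channel, by -2.94 ± 0.15. Kcnj8 and Kcnj11, the pores of ATP-sensitive potassium channels, differed by -3.14 ± 0.21 and -2.87 ± 0.19, and Kcnj5, a pore of the acetylcholine-activated channel of the atria, by -3.11 ± 0.16. Scn7a, an atypical channel that senses extracellular sodium, differed by -2.90 ± 0.40, and its heart signals of days 1 and 3 were at least 605 while no T cell array reached the 40th percentile. Kcnq1, Scn1a, Cacna1c, Kcnj8, Kcnj5 and Scn7a passed the filter through hearts alone, which fixed their direction. For Kcnk2 and Kcnk3, K2P leak channels, the chosen probe sets gave only -0.22 and -0.30, while other probe sets of the same genes gave -1.87 for Kcnk2 and -2.63 and -1.54 for Kcnk3. Those probe sets were called as well, so the size of the difference of these 2 genes is not settled.

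In the allografts, channel genes fell between day 1 and day 7 about as often as other genes and rose less often. Of the 57 channel genes tested in hearts, 9 were higher and 20 lower on day 7 than on day 1, as the mean of 3 same-treatment differences with 4 residual degrees of freedom. This is 15.8% higher and 35.1% lower, where 30.9% of all 19734 probe sets were higher and 33.8% lower, so the share that fell is close to the background. The median change was -0.17 for the channel genes and -0.02 for all probe sets. In 20 of 57 channel genes (35.1%) all 3 day 7 arrays lay below all 6 arrays of days 1 and 3, compared with 25.8% of all probe sets, and in 5 (8.77%) all lay above, compared with 24.3%. As these are bulk samples, fewer cells of a type and less RNA per cell cannot be told apart. Below, 3 values given for a day are those of the untreated, cyclosporine, and cyclosporine plus peptide arrays, in that order.

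Scn7a fell most. Its signals in hearts were 1939, 1762 and 1977 on day 1, 605, 730.0 and 851 on day 3 and 88.5, 115 and 220.0 on day 7, a change from day 1 to day 7 of -3.69 ± 0.18 (SE, adjusted p = 3.20e-06). Every day 3 array was below every day 1 array and every day 7 array below every day 3 array, and the day 7 signals of the untreated and cyclosporine hearts had fallen under the 40th percentile. The neuron and Schwann cell markers, in whose cells this channel is also known, summed to 2128 to 2374 on day 1, 2640 to 2703 on day 3 and 2292 to 2570 on day 7, but the list did not move as 1 group, with 3 of 8 tested lower and 2 higher on day 7 than on day 1. Sox10, a Schwann cell regulator, had 152, 159 and 185 on day 1, 159, 202 and 208 on day 3 and 25.3, 44.2 and 47.3 on day 7, a change of -1.74 ± 0.12, and Ngfr, a neurotrophin receptor of Schwann cells, changed by -1.10 ± 0.11. Snap25, another gene of the list, went the other way, with 82.4, 103 and 68.4 on day 1 and 157, 166 and 202 on day 7. The part of these cells in the change of Scn7a was not tested. Scn1a had signals of 285, 321 and 404 on day 1, 223, 238 and 251 on day 3 and 77.3, 194 and 199 on day 7, with the untreated day 7 array lowest, and fell by 1.11 (SE 0.21, adjusted p = 0.00187).

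The sodium channel beta subunits did not move together. Scn4b, which modifies the gating of sodium pores, gave 2683, 2757 and 2556 on day 1, 1941, 2326 and 2398 on day 3 and 1762, 1741 and 1613 on day 7 and changed by -0.64 ± 0.08 (SE, adjusted p = 2.35e-04), with the day 7 arrays below all others. Scn2b gave 83.2, 102 and 95.5 on day 1, 208, 171 and 168 on day 3 and 134, 235 and 240.0 on day 7 and changed in the other direction, by 0.96 ± 0.19 (SE, adjusted p = 0.00278). Its signals on all day 1 arrays and on the untreated day 7 array lay below the 40th percentile, so the rise starts from low signals. Scn3b gave 1608, 1070 and 1299 on day 1, 654, 511 and 807 on day 3 and 1051, 1369 and 1083 on day 7. Its change was -0.999 ± 0.19 (SE, adjusted p = 0.00879) from day 1 to day 3 and 0.83 ± 0.19 (SE, adjusted p = 0.00631) from day 3 to day 7, and its other probe set gave -1.19 and 0.94 for the same steps.

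Among calcium channels the cardiac L-type complex fell. Cacna1c had signals of 894, 954 and 943 on day 1, 975, 1315 and 1377 on day 3 and 473, 534 and 554 on day 7. The 3 day 3 arrays were the highest and the 3 day 7 arrays the lowest, so that its change of 0.37 ± 0.08 (SE, adjusted p = 0.0159) to day 3 was followed by one of -1.19 ± 0.08 (SE, adjusted p = 2.21e-05) to day 7. The beta subunit Cacnb2, which brings the pore to the membrane, gave 2232, 2367 and 2279 on day 1, 1436, 1413 and 1720 on day 3 and 1220, 1195 and 1180 on day 7, with no overlap between the days and a change from day 1 to day 7 of -0.93 ± 0.08 (SE, adjusted p = 2.38e-05). Both of its other probe sets fell too, by -1.21 and -1.36. Cacna2d1 gave 2194, 2208 and 2187 on day 1, 1920, 1852 and 1889 on day 3 and 1488, 1576 and 1322 on day 7 and changed by -0.59 ± 0.06 (SE, adjusted p = 9.86e-05), and the gamma subunit Cacng6 by -0.58 ± 0.10. The T-type pores moved in opposite directions, with -0.34 ± 0.11 for Cacna1h and 0.37 ± 0.09 for Cacna1g, and Cacna1f, an L-type pore known from the retina, rose by 0.52 ± 0.10. Cacna1g was no longer called without the cyclosporine arrays (adjusted p = 0.0748) or without the cyclosporine plus peptide arrays (adjusted p = 0.0670). For Cacna1d the change was -0.18 ± 0.15 and did not pass.

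Of 16 voltage-gated potassium pores tested in hearts, 7 fell from day 1 to day 7 and 1 rose. Of all probe sets, 33.8% fell and 30.9% rose. Those of the 16 that fell include pores of the repolarising currents. Kcnd2, a main pore of the transient outward current in rodent ventricle, gave 463, 497 and 531 on day 1, 259, 376 and 318 on day 3 and 154, 179 and 173 on day 7 and changed by -1.47 ± 0.09 (SE, adjusted p = 8.28e-06). Its days did not overlap. Its partner Kcnip2 gave 6086, 6518 and 6130 on day 1, 4647, 7329 and 7097 on day 3 and 2858, 4472 and 4588 on day 7 and changed by -0.68 ± 0.12 (SE, adjusted p = 0.00155), with the day 7 arrays below all others. Kcnip2 signal in the untreated heart was lower than in both treated hearts on days 3 and 7. Kcna4, a pore of the slower transient outward current, gave 305, 296 and 268 on day 1, 151, 223 and 185 on day 3 and 117, 142 and 136 on day 7 and changed by -1.05 ± 0.12 (SE, adjusted p = 1.27e-04).

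Kcna5, the pore of the ultra-rapid delayed rectifier, fell after day 3. Its signals were 196, 250.0 and 211 on day 1, 198, 229 and 210.0 on day 3 and 77.9, 105 and 126 on day 7, a change of -0.04 ± 0.12 from day 1 to day 3, which did not pass, and of -0.96 ± 0.12 (SE, adjusted p = 3.55e-04) from day 3 to day 7. Kcnh2, the pore of the rapid delayed rectifier, gave 376, 394 and 392 on day 1, 302, 372 and 381 on day 3 and 155, 164 and 168 on day 7 and changed from day 1 to day 7 by -1.18 ± 0.08 (SE, adjusted p = 1.18e-05), again with day 7 below every earlier array. Kcnq1 gave 769, 791 and 723 on day 1, 555, 766 and 707 on day 3 and 687, 692 and 528 on day 7, its ranges overlapped and its change of -0.26 ± 0.12 (SE, adjusted p = 0.0891) did not pass. The modulatory subunits Kcng2, Kcns1 and Kcns3 changed by -1.05 ± 0.09, -0.78 ± 0.12 and -0.38 ± 0.09, and Kcnv2 by -0.25 ± 0.10, which did not pass.

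Of the 7 inward rectifiers tested in hearts, 4 fell and 0 rose by the chosen probe sets, against 33.8% and 30.9% of all probe sets. All 4 that fell were higher in hearts than in T cells. Kcnj5 gave 1063, 959 and 1076 on day 1, 661, 747 and 794 on day 3 and 427, 388 and 325 on day 7 and Kcnj3, its partner in the acetylcholine-activated channel, 560.0, 538 and 595 on day 1, 408, 584 and 513 on day 3 and 276, 336 and 311 on day 7. They changed from day 1 to day 7 by -1.41 ± 0.12 (SE, adjusted p = 2.44e-05) and -0.85 ± 0.10 (SE, adjusted p = 1.78e-04). A second probe set of Kcnj5 differed by -0.01 between days 3 and 7 where the chosen one differed by -0.92, and it was not called. From day 1 to day 7 the second probe set changed by -0.96.

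Kcnj8, the ATP-sensitive pore known from vascular smooth muscle and pericytes, gave 1033, 983 and 850.0 on day 1, 976, 1050 and 910.0 on day 3 and 292, 325 and 468 on day 7. Its day 7 arrays lay below all earlier ones and the change from day 1 was -1.39 ± 0.16 (SE, adjusted p = 1.58e-04). The 10 smooth muscle and pericyte markers summed to 11891 to 13261 on day 1 and 8775 to 13536 on day 7, with 4 lower and 2 higher. Rgs5, a pericyte marker, had 2446, 2149 and 2219 on day 1 and 452, 588 and 830 on day 7, a change of -1.88 ± 0.16, and Abcc9, the regulatory subunit that pairs with Kcnj8, changed by -0.49 ± 0.06. Acta2, another marker of the list, went the other way in each treatment. Its signals were 1321, 1031 and 1286 on day 1 and 1386, 1317 and 1729 on day 7. The part of these cells in the change of Kcnj8 was not tested. Kcnj11, the ATP-sensitive pore of ventricular muscle, gave 1303, 1244 and 1158 on day 1, 806, 1313 and 1194 on day 3 and 506, 615 and 644 on day 7 and changed by -1.05 ± 0.14 (SE, adjusted p = 2.76e-04). Its other 2 probe sets changed by -0.66 and -1.07. Kcnj4, Kcnj6 and Kcnj15, inward rectifiers of brain and epithelia, had changes of -0.05, -0.01 and 0.04 that did not pass. A second probe set of Kcnj15 was called at 1.22 from day 1 to day 3, -0.68 from day 3 to day 7 and 0.53 from day 1 to day 7, so the 2 probe sets of this gene disagree.

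Against this direction 3 potassium channel genes rose by more than 1. Kcnn4 gave 277, 368 and 321 on day 1, 368, 378 and 347 on day 3 and 1990, 1362 and 1310 on day 7. The 3 day 7 arrays stood above all others, nearly all of the rise lay between days 3 and 7, and the change from day 1 was 2.20 ± 0.16 (SE, adjusted p = 1.38e-05), which is 4.59-fold on the scale used. Kcnab2 gave 208, 252 and 236 on day 1, 437, 275 and 298 on day 3 and 726, 851 and 859 on day 7 and rose by 1.74 ± 0.17 (SE, adjusted p = 5.93e-05). Kcnk13, a K2P leak channel known from microglia, gave 156, 189 and 144 on day 1, 252, 221 and 233 on day 3 and 441, 356 and 358 on day 7 and rose by 1.17 ± 0.12 (SE, adjusted p = 6.61e-05). For all 3 genes every day 7 array exceeded every earlier one. Smaller rises were called for Kcnk6, Kcnd1 and the pacemaker channel Hcn2, by 0.45, 0.32 and 0.48, while Hcn4, the main pacemaker channel of the sinus node, had -0.19 ± 0.13 and did not pass. In the fit over both tissues Hcn2 (adjusted p = 0.0767) and Kcnd1 (adjusted p = 0.0628) were not called. The call of Kcnk6 was lost without the cyclosporine plus peptide arrays (adjusted p = 0.0934), and that of Kcnd1 without the untreated (adjusted p = 0.0506) or the cyclosporine arrays (adjusted p = 0.133). For Kcnk2 and Kcnk3 the chosen probe sets had changes of -0.06 and -0.18 that did not pass, whereas the other probe sets fell, by -1.78 for Kcnk2 and by -0.73 and -0.61 for Kcnk3.

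**Figure D2:**
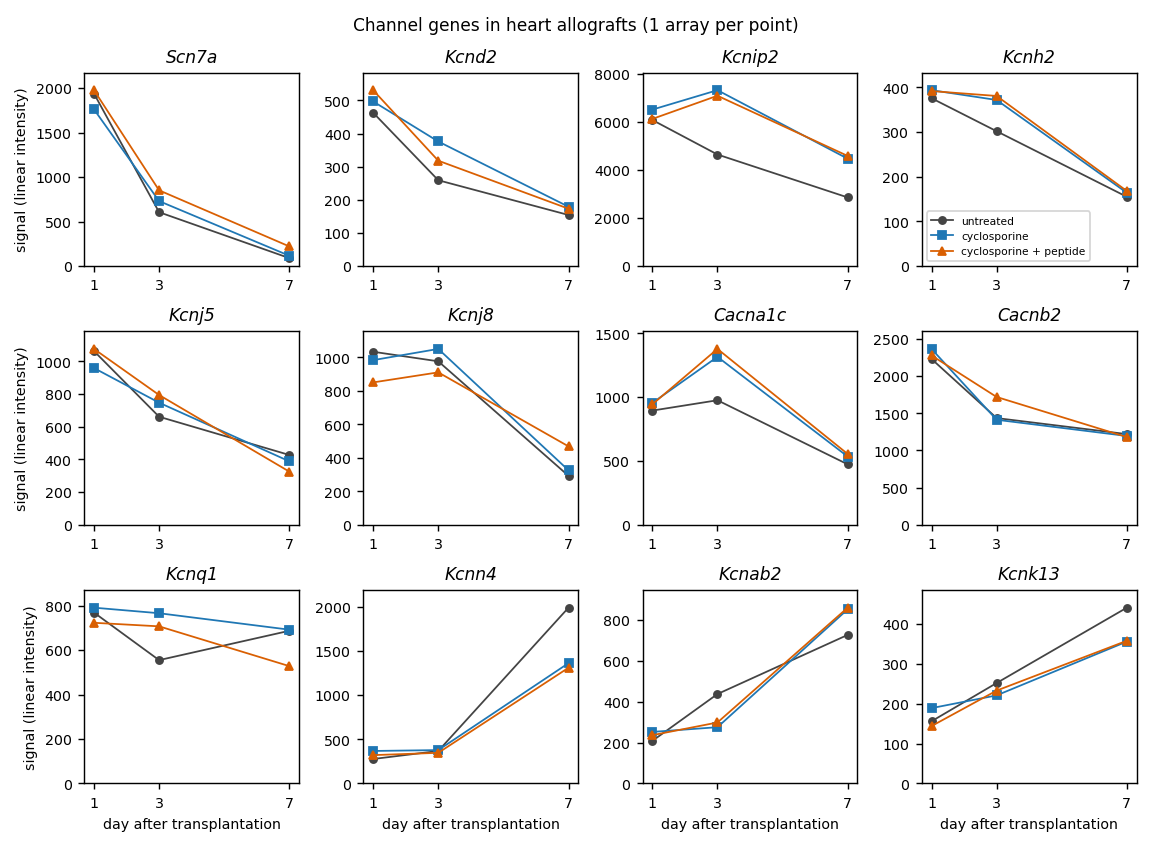
Signal (linear intensity) of 12 channel genes in heart allografts on days 1, 3 and 7 after transplantation, 1 array per point and 1 line per treatment, each panel starting at 0. Scn7a fell from between 1762 and 1977 to between 88.5 and 220, and Kcnn4 rose from between 277 and 368 to between 1310 and 1990.

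Day 3 had features of its own. From day 1 to day 3, 8 of 57 genes were higher and 10 lower, against 14.6% higher and 12.9% lower of all probe sets. Kcne3, a single-pass beta subunit, gave 157, 212 and 143 on day 1, 480.0, 478 and 354 on day 3 and 177, 188 and 210.0 on day 7, with the day 3 arrays above all others, and rose by 1.28 ± 0.14 (SE, adjusted p = 0.00209) before changing by -1.12 ± 0.14 (SE, adjusted p = 3.78e-04) to day 7. Kcnma1, the large-conductance calcium-activated pore, gave 137, 122 and 136 on day 1, 231, 221 and 145 on day 3 and 71.7, 82.4 and 132 on day 7. Its day 3 change of 0.52 ± 0.23 (SE, adjusted p = 0.137) did not pass, and its fall from day 3 to day 7 of -0.96 ± 0.23 was lost without the cyclosporine arrays (adjusted p = 0.0947). Kcna2 was not tested in hearts, where its signals were 85.3, 76.1 and 75.5 on day 1, 143, 313 and 192 on day 3 and 42.5, 62.3 and 53.5 on day 7, with day 3 above all others. The count of 18 genes called between days 1 and 3 dropped to 9 without the cyclosporine arrays and to 8 without the cyclosporine plus peptide arrays. Scn7a and Kcne3 kept their calls in all 3 fits that left out a treatment, whereas the rise of Cacna1c was lost in both named here (adjusted p = 0.124 and 0.139). From day 3 to day 7, 5 genes were higher and 24 lower, against 26.9% and 29.4% of all probe sets.

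Other genes of cardiac excitation fell as well. From a list of calcium-handling, junctional and conduction genes, 25 were tested in hearts. In limma 0 were higher and 19 lower on day 7 than on day 1 (median -0.46, against -0.02 for all probe sets). Of all probe sets, 30.9% were higher and 33.8% lower. The largest falls were in Trdn, a protein of the calcium release complex (-1.24 ± 0.12), Irx3, a conduction system regulator (-1.12 ± 0.13), and Gja5, a connexin of atrium and conduction fibres (-1.002 ± 0.09). Atp2a2, the calcium pump of the sarcoplasmic reticulum, had 0.05 ± 0.06 and did not pass. From a list of T cell calcium entry and ion transport genes, 11 of 25 rose and 5 fell (median 0.10), led by Mcoln2 (1.65 ± 0.13), P2rx4 (1.51 ± 0.08) and Nfatc2 (1.12 ± 0.12). In T cells against hearts, the excitation list had 1 gene higher and 24 lower of 25, and the T cell list 14 higher and 6 lower of 26, a share of higher genes near the 47.9% of all probe sets.

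Markers of several cell types changed over the same days. Between days 1 and 7 the summed signal in hearts went from 1871 to 2961 to 23460 to 29135 for T cell markers, of which 13 of 13 tested rose, and from 16013 to 16577 to 59155 to 64085 for macrophage markers, of which 8 of 9 rose. Heart muscle markers summed to 181408 to 185555 on day 1 and 152614 to 169807 on day 7, and 8 of 14 fell while 2 rose (median -0.23). Endothelial markers summed to 15985 to 17579 on day 1 and 7814 to 9254 on day 7, with 8 of 8 lower. Neutrophil markers summed to 7560 to 17237 on day 1 and 3118 to 5713 on day 7, with 5 of 7 lower. The ratio of 3' to 5' control probe sets for actin was 1.84 to 2.44 on day 1 and 1.41 to 1.43 on day 7. The part of these in the channel changes was not tested.

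Sequences upstream of the start sites are shown for genes that moved over time in hearts, with genes that fell and genes that rose side by side. They are the last 100 bases before the annotated start, from RefSeq on build GRCr8, written 5' to 3' on the gene's strand. A promoter was found for 46 of the 66 genes, of which 15 fell and 5 rose, and Kcnn4 had no entry. Searched on both strands over 250 bases were GGGCGG (the GC box bound by SP factors), CAGCTG (an E-box), GGAAAA (NFAT), TGANTCA (AP-1), TTCNNNGAA (STAT), AGATAA (for GATA factors) and TGACGTCA (CRE), none of which contains another, although matches can overlap. Capitals mark every match on either strand within the printed bases. They fall in Kcnip2 (GC box), Kcna5 (NFAT and E-box) and Kcnj8 (NFAT), and the other 4 windows hold none.
Kcnip2, chr1:254613899-254613998, minus strand: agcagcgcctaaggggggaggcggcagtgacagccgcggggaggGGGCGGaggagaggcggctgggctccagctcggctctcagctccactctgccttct
Kcnd2, chr4:50742385-50742484, plus strand: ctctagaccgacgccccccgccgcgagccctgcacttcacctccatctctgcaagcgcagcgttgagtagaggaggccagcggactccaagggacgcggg
Kcna5, chr4:161043810-161043909, minus strand: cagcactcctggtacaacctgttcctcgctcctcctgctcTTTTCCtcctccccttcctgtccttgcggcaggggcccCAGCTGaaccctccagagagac
Kcnj8, chr4:177246549-177246648, minus strand: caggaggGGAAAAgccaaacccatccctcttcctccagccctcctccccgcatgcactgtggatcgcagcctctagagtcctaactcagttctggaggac
Scn7a, chr3:71846285-71846384, minus strand: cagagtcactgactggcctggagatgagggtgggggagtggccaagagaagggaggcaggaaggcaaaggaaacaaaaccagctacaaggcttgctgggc
Kcnab2, chr5:168270761-168270860, minus strand: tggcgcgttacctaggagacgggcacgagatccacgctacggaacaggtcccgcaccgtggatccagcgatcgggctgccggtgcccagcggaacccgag
Kcnk13, chr6:124971709-124971808, plus strand: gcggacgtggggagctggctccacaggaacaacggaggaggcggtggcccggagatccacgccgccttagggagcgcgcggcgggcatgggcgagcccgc

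The channel promoters were rich in G and C, with a median of 63.6% over 250 bases against 52.0% for all 27457 promoters. The GC box was in 28 of 46 channel promoters (60.9%) and 32.4% of all promoters, in 10 of the 15 that fell and in 2 of the 5 that rose. The E-box was in 10 of 46 channel promoters (21.7%) and 11.9% of all promoters, in 5 of the 15 that fell (33.3%) and 0 of the 5 that rose. The NFAT letters were in 8 of 46 (17.4%) against 21.3%, the STAT letters in 3 (6.52%) against 7.52% and the GATA letters in 6 (13.0%) against 10.0%. AP-1 and CRE letters were in 0 of 46, against 6.36% and 1.70% of all promoters. A match describes letters in this window and is not a site, and the lack of one says only that those letters are not there.

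A split made on the day 3 arrays alone was read against the change from day 1 to day 7. The difference itself uses other arrays, while the filter and the spread behind its calls include the day 3 heart arrays. With a difference of more than 1 and no overlap between the tissues on day 3, 5 channel genes lay on the T cell side and 25 on the heart side. Of the 25, 17 (68.0%) fell and 2 rose in hearts from day 1 to day 7 with a median of -0.82. Among all 4535 probe sets tested on the heart side, 66.0% fell with a median of -0.50. Of the 5 on the T cell side, 3 were tested in hearts: Kcnn4 and Kcnab2 rose and Kcnmb4 had -0.17 ± 0.10, which did not pass. On that side 71.2% of all probe sets tested rose. The 2 heart-side genes that rose were Scn2b and Kcnd1, and those that did not pass were Kcnq1, Kcne4, Kcne3, Kcnma1, Scn3b and Cacnb3.

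**Figure D3:**
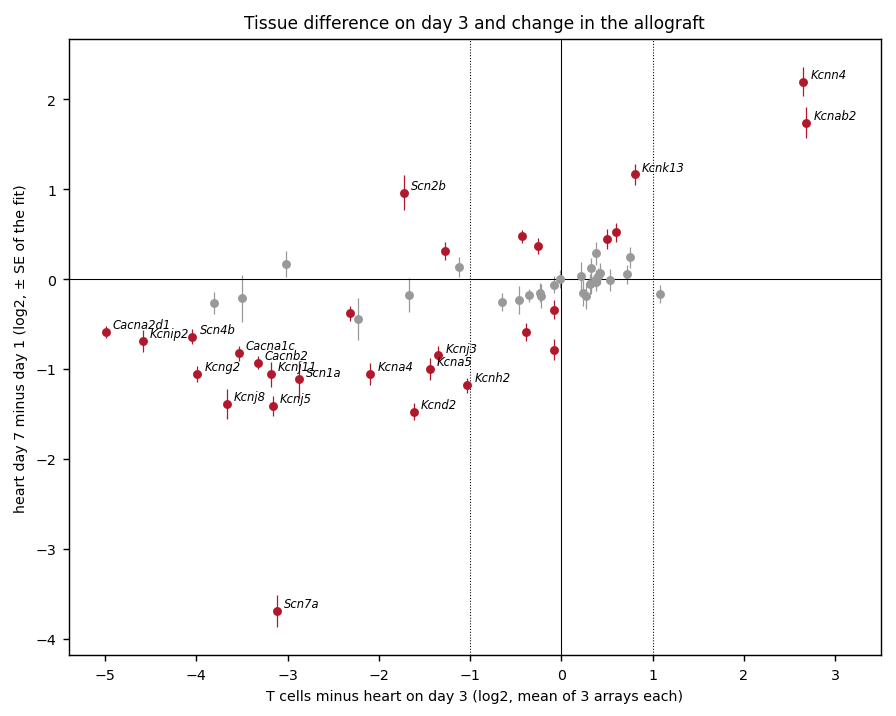
For the 57 channel genes tested in hearts, the difference between T cells and hearts on day 3 (x axis, mean of 3 arrays each, log2) and the change in hearts from day 1 to day 7 (y axis, log2, bars ± SE of the fit); red points passed the test and dotted lines mark differences of -1 and 1. Most heart-side genes lie below 0, while Kcnn4 and Kcnab2 lie alone at the upper right and Scn7a at -3.69.

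The change from day 1 to day 7 differed between the tissues for 22 of the 66 channel genes, tested as an interaction on the 18 arrays (8 residual degrees of freedom). It was higher in T cells for 16 genes and lower for 6, against 23.2% and 23.5% of all probe sets. Scn7a differed most, by 3.64 ± 0.29 (SE, adjusted p = 1.75e-06), followed by Kcnd2 at 1.68 ± 0.20 (SE, adjusted p = 3.84e-05) and Kcnj11 at 1.43 ± 0.22 (SE, adjusted p = 2.13e-04). For 10 of the 22 genes, Scn7a and Kcnd2 included, the T cell signals were too low to be tested in T cells alone, so the T cell side of their difference rests on signals mostly below the 40th percentile. Another 10 were tested in both tissues. In the opposite direction stood Kcnn4 at -2.05 ± 0.20 (SE, adjusted p = 8.30e-06) and Kcnab2 at -1.59 ± 0.20 (SE, adjusted p = 5.16e-05). Kcnn4 signals in T cells were 1747, 2413 and 2467 on day 1, 2208, 2320 and 2604 on day 3 and 2292, 2506 and 2483 on day 7, with the untreated day 1 array lowest, and those of Kcnab2 were 2059, 2222 and 2196 on day 1, 2075, 2212 and 2349 on day 3 and 2420, 2365 and 2380 on day 7. Both stayed above the heart signals of the same treatment and day throughout, and hearts came closest to T cells on day 7. Without the untreated day 1 T cell array, 18 genes were higher and 5 lower: Cacng6 (0.78, adjusted p = 0.0121) and Kcns3 (0.48, adjusted p = 0.0357) were called in addition, and Kcnj14 was no longer called (-0.60, adjusted p = 0.0916). Kcnj14 and Kcna1 were below the 40th percentile on all heart arrays. Leaving out a treatment ended the calls of Kcna1 (untreated, adjusted p = 0.0744), Kcnj8 and Kcna5 (cyclosporine, 0.0554 and 0.0748), Kcnj5 (cyclosporine plus peptide, 0.0914) and Scn2b (either, 0.120 and 0.0506). Kcnj14 lost its call without the untreated, the cyclosporine or the cyclosporine plus peptide arrays (adjusted p = 0.303, 0.0512 and 0.0718). With a pseudocount of 64 Kcnj14 was not called either (adjusted p = 0.131).

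**Figure D4:**
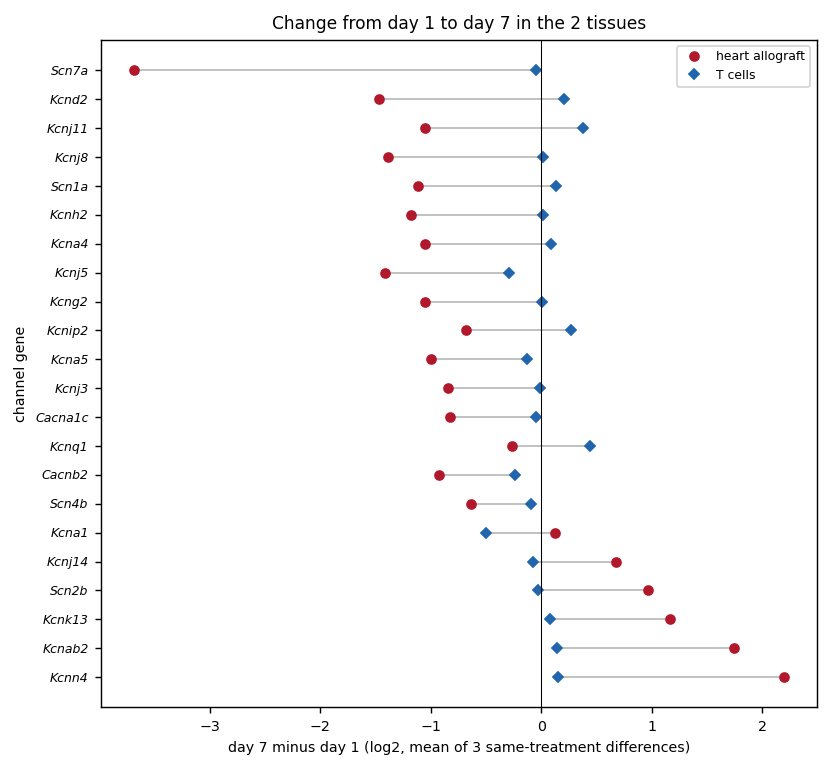
Change from day 1 to day 7 (log2, mean of 3 same-treatment differences) in heart allografts (red circles) and T cells (blue diamonds) for the 22 channel genes whose change differed between the tissues. Heart changes run from -3.69 for Scn7a to 2.20 for Kcnn4, and T cell changes from -0.50 for Kcna1 to 0.44 for Kcnq1.

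No channel gene passed between treatments in hearts. For cyclosporine minus untreated, 0 of 57 channel genes passed in limma (7 at an unadjusted p below 0.05), and 0% of all probe sets did (2287 unadjusted). For cyclosporine plus peptide minus untreated, 0 passed (6 unadjusted) and 0% of all (3157 unadjusted), and for cyclosporine plus peptide minus cyclosporine, 0 passed (1 unadjusted) and 0% of all (954 unadjusted). Both comparisons with untreated hearts share the untreated arrays. Kcnip2 had the lowest adjusted p in each, at 0.47 ± 0.12 (SE, adjusted p = 0.258) for cyclosporine and 0.43 ± 0.12 (SE, adjusted p = 0.220) for cyclosporine plus peptide. Its signals on day 3 were 7329 and 7097 in the treated hearts and 4647 in the untreated heart, and on day 7 they were 4472 and 4588 against 2858. The heart muscle markers summed to 179903 and 184802 against 164386 on day 3 and to 169807 and 163839 against 152614 on day 7, and their part was not tested.

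Other genes differed on single days with no test. Scn1a signal on day 7 was 194 and 199 in the treated hearts and 77.3 in the untreated heart, and its mean difference for cyclosporine plus peptide was 0.61 ± 0.21 (SE, adjusted p = 0.246). Scn7a on day 7 was 115 and 220.0 in the treated hearts and 88.5 in the untreated heart, and its mean difference for cyclosporine plus peptide was 0.56 ± 0.18 (SE, adjusted p = 0.239). Kcne4, a potassium channel subunit, on day 7 was 452 and 556 in the treated hearts and 259 in the untreated heart, and on day 3 it was 685 and 539 against 764. Kcnn4 on day 7 was 1362 and 1310 in the treated hearts and 1990 in the untreated heart, where the T cell markers summed to 29135 and 28707 against 23460 and the macrophage markers to 59155 and 60907 against 64085. Kcnk5, an acid-sensitive leak channel that was not tested in hearts, had signals of 24.6, 38.3 and 23.9 on day 1, 170.0, 39.6 and 45.0 on day 3 and 110.0, 91.9 and 77.1 on day 7, with the untreated day 3 array the only one of that day above the 40th percentile. Neutrophil markers summed to 24973 in that array against 10609 and 9365 in the treated hearts of day 3, and their part was not tested. Over the 57 genes, the median difference on day 7 was 0.13 for cyclosporine (39 above 0) and 0.11 for cyclosporine plus peptide (36 above 0), where 50.2% and 46.7% of all probe sets lay above 0.

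**Figure D5:**
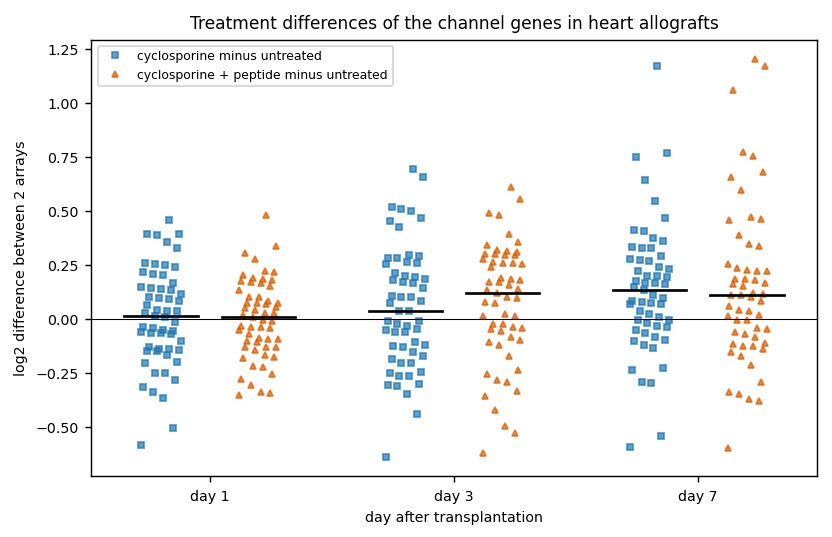
Differences between treated and untreated heart arrays of the same day (log2 difference between 2 arrays, y axis) for the 57 channel genes tested, by day after transplantation (x axis); blue squares are cyclosporine, orange triangles cyclosporine plus peptide, and bars medians. Medians on day 7 are 0.13 and 0.11, and Scn1a is the highest point on that day in both groups at 1.17 and 1.20.

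In T cells no channel gene passed over time. Of 49 tested, 0 passed from day 1 to day 3 in limma (6 at an unadjusted p below 0.05; 0% and 1617 unadjusted of all 19454 probe sets) and 0 from day 3 to day 7 (3 unadjusted; 0% and 1048 of all). From day 1 to day 7, 0 passed (2 unadjusted), against 0.437% of all probe sets higher and 0.139% lower (4655 unadjusted). Kcna1, a voltage-gated pore, came nearest at -0.50 ± 0.14 (SE, adjusted p = 0.0979), with signals of 124, 160.0 and 173 on day 1, 91.8, 138 and 149 on day 3 and 71.1, 124 and 119 on day 7, and it passed in a fit over both tissues (adjusted p = 0.0214). Kcnj14 was highest on day 3 in each treatment, with 255, 130.0 and 177 on day 1, 377, 295 and 249 on day 3 and 171, 168 and 174 on day 7, and differed from day 1 by 0.69 ± 0.18 (SE, adjusted p = 0.427). Kcnk6 gave 1059, 859 and 896 on day 1, 1094, 911 and 1122 on day 3 and 1153, 905 and 1164 on day 7, and its days overlapped. Kcnk5 gave 137, 196 and 230.0 on day 1, 218, 197 and 140.0 on day 3 and 271, 272 and 251 on day 7, with the day 7 arrays above all others, and changed from day 1 to day 7 by 0.49 ± 0.21 (SE, adjusted p = 0.212).

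Nor did a channel gene pass between treatments in T cells. For cyclosporine minus untreated 0 of 49 passed in limma (10 at an unadjusted p below 0.05) and 0% of all probe sets (2216 unadjusted). For cyclosporine plus peptide minus untreated 0 passed (12 unadjusted) and 0% of all (4631 unadjusted), and for the peptide added to cyclosporine 0 passed (2 unadjusted) and 0% of all (855 unadjusted). Kcna2 was lower in both treatments on each day, with T cell signals of 529, 277 and 287 on day 1, 413, 334 and 244 on day 3 and 475, 243 and 258 on day 7, so that the untreated arrays stood above all treated ones. Its differences were -0.71 ± 0.14 (SE, adjusted p = 0.343) for cyclosporine and -0.80 ± 0.14 (SE, adjusted p = 0.116) for cyclosporine plus peptide. Kcna1 and Kcnj11 lay the other way, at 0.56 ± 0.14 (SE, adjusted p = 0.116) and 0.68 ± 0.17 (SE, adjusted p = 0.116) for cyclosporine plus peptide. In that comparison 7 genes passed in a fit over both tissues, 6 higher and 1 lower, and 3 passed without the day 1 arrays, Kcna2 and Kcnmb4 among them (adjusted p = 0.0356 and 0.0308), while without the untreated day 1 array alone 0 did.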

How the data were processed

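Each of 18 rat samples was hybridised to 1 array of short oligonucleotide probe sets. The authors' deposited values are linear signal intensities for 31099 probe sets, 0.138% of them below 0, with no step of their making given in the sources used here. Of 31042 probe sets other than controls, 20826 carry 1 gene symbol in the platform annotation, 436 several and 9780 none. From the deposited intensities, log2(signal + 16) was computed after setting values below 0 to 0, without further scaling, so log2 differences understate changes of weak signals. Probe sets above an array's 40th percentile in at least 3 arrays of a fit were tested with limma 3.58.1 (R 4.3.3, lmFit and eBayes with a trend) in additive models: tissue with treatment and day over all arrays, treatment and day within a tissue, and tissue by day for the interaction. P-values were adjusted by Benjamini-Hochberg over all probe sets tested, with a threshold of 0.05.

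The genes named include the 12 largest called differences in each direction, with fewer where fewer passed. Where fewer than 5 passed, they include those among the 6 whose differences kept 1 sign by the widest margin. Others come from a list of channel genes picked by hand for each tissue and described whatever their values. Examples are Kcnj2, Kcne1, Kcnq1, Kcnk2 and Hcn4 for hearts and Kcna3 and Cacna1d for T cells. Genes chosen for a low p or a single day's value, such as Kcnip2 and Scn7a under cyclosporine plus peptide, were added after their values were seen. Members and gene lists were chosen with earlier results of these data known. Probe-set levels were not compared with each other, since only differences within a probe set carry meaning. Tests were run on simulated data with known changes first. The number of arrays limits the precision. Sequences come from RefSeq tables on GRCr8 through Entrez gene identifiers, with the first entry listed for a gene kept.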

Additional observations from a re-analysis of the deposited data

Results flagged for a closer look

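The change from day 1 to day 7 differed between T cells and hearts for 22 channel genes by the interaction test in limma (adjusted p below 0.05). Of the 66 channel genes, 24.2% were higher and 9.09% lower, against 23.2% and 23.5% of all probe sets. The share that was higher is thus close to that of all probe sets. The values are the T cell change minus the heart change on the log2 scale. For 16 genes the value was above 0. It was 3.64 for Scn7a, 1.68 for Kcnd2, 1.43 for Kcnj11, 1.41 for Kcnj8, 1.24 for Scn1a and 1.19 for Kcnh2. It was 1.14 for Kcna4, 1.12 for Kcnj5, 1.06 for Kcng2, 0.95 for Kcnip2, 0.87 for Kcna5 and 0.84 for Kcnj3. It was 0.77 for Cacna1c, 0.71 for Kcnq1, 0.68 for Cacnb2 and 0.55 for Scn4b. For the other 6 genes it was below 0. It was -2.05 for Kcnn4, -1.59 for Kcnab2, -1.09 for Kcnk13, -0.99 for Scn2b, -0.75 for Kcnj14 and -0.63 for Kcna1. In hearts the fitted change was below 0 for each of the 16 genes and above 0 for each of the 6.

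In T cells the fitted changes of these genes lay between -0.50 for Kcna1 and 0.44 for Kcnq1, none of which passed in T cells where tested. Of the 22 genes, 10 had T cell signals too low to be tested there (Scn7a, Kcnd2, Kcnj8, Scn1a, Kcna4, Kcnj5, Kcna5, Cacna1c, Kcnq1 and Scn2b), so the T cell side of their value rests on signals mostly below the 40th percentile, and 2 (Kcnj14 and Kcna1) were too low in hearts. The 22 genes share the arrays of the report's comparison over days in hearts and are no independent support for it. Summed T cell and macrophage markers rose in the same hearts, endothelial markers fell, and the actin 3' to 5' ratio fell, and their part was not tested.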

How the results depend on the processing

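Alternatives were quantile scaling, centring on array medians, pseudocounts of 4 and 64, no filter, a filter over all arrays, the mean over a gene's probe sets, no trend, a fit over both tissues, leaving out a treatment or day, and, chosen after seeing the data, leaving out the untreated day 1 T cell array. No direction was reversed. Genes called in T cells minus heart numbered 46 to 56 over all alternatives (54 as reported), in hearts 27 to 32 from day 1 to day 7 and 24 to 33 from day 3 to day 7 (29 each), and in the interaction 16 to 27 (22). From day 1 to day 3 in hearts, 8 to 16 genes were called with a treatment left out, against 18. In T cells the fit over both tissues called 1 gene from day 1 to day 7 and 7 for cyclosporine plus peptide minus untreated, and leaving out a day gave 0 to 3 for the latter. The day 3 split kept 4 to 5 genes on the T cell side and 17 to 25 on the heart side. The causes were not tested. With the 9 pairs of a T cell and a heart array of the same treatment and day as a block (chosen after seeing the data), 53 genes were called between tissues and 24 in the interaction. Signals near the 40th percentile limit Kcna1, Kcnk1, Kcnk9 and Kcnma1, and several probe sets of a gene can differ, as for Kcna2, Kcnk2 and Kcnk3.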
